A study of Mus musculus with 4 samples.

Results

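Hyaluronan is a long, unsulphated sugar polymer of the extracellular matrix. The membrane synthases Has1, Has2 and Has3 extrude it from the cell, hyaluronidases such as Hyal1 and Hyal2 cut it, and Cd44 is its main receptor at the cell surface. Tnfaip6 encodes TSG-6, a secreted protein that moves heavy chains of inter-alpha-inhibitor onto hyaluronan and so stabilises the pericellular coat. In fibroblasts Has2 is usually the leading synthase, and matrix rich in hyaluronan accompanies migration and wound repair.

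These 7 genes were examined among 27745 gene names on the arrays, which include unnamed transcripts and clones. They were taken by symbol, from the density and genotype contrasts described here, so the values that follow are descriptions and carry no test. The 7 genes are read by 12 probes (21 spots), all of them listed below. Transcripts were profiled in mouse embryonic fibroblasts (MEFs), primary cells from embryos, of C57BL/6J background. Cells were labelled as Lats2-/- (KO) or Lats2+/+ (WT), where Lats2 encodes a Hippo pathway kinase that restrains YAP and TAZ in crowded cells, and the labels name no conditional allele or Cre. Low density cultures were sampled at 48 h, while subconfluent, and high density cultures after 3 to 5 days in the same medium with serum, so that time in culture changed with density. Each genotype was hybridised on 2 dual-colour Agilent arrays that set high density against low density RNA with exchanged dyes. A dye swap is 1 replicate, no label gives the number of embryos or cultures, and no p-value was therefore computed.

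The arrays comprised 4 hybridisations with 8 channels, and in each channel the scanner software set 52.8% to 67.7% of features well above background. Both WT arrays lay on 1 slide and the KO arrays on 2 others, each slide with a scan day of its own, so genotype, slide and scan cannot be told apart. The genotype labels were set against Lats2 itself. Of its 4 probes, 3 were higher in KO-labelled cells in both dyes at both densities and 1 was lower (log2 difference -0.63 to 1.39 at low density and -1.26 to 1.5 at high density). Where these probes lie relative to the deleted part is not given in the sources used here, so each genotype direction given here holds for the labels as deposited. The study presents a western blot of its MEFs as its check of the Lats2 KO at the protein level, which was not analysed here. Of 6 fibroblast markers, 6 were well above background in all 8 channels. Among the markers of other cells, Cd68 (leukocytes) and Sox9 and Col2a1 (cartilage) were well above background in all 8 channels, Msln and Krt19 (mesothelium) in 7, Csf1r in 6, Acan in 4, and Kdr (endothelium) and Krt18 (epithelium) in 2, both of WT-labelled cells at low density. Cldn5 (endothelium) was so in 1 channel. The rest were not well above background in any channel, namely Ptprc, Adgre1 and Itgam (leukocytes), Pecam1, Cdh5 and Tek (endothelium), Epcam, Cdh1 and Krt8 (epithelium), Upk3b and Upk1b (mesothelium) and Matn1 and Col9a1 (cartilage). The summed normalized intensity was 382 to 426 in WT low density, 381 to 408 in WT high density, 361 to 528 in KO low density and 357 to 486 in KO high density channels for the 5 leukocyte markers. For the 5 endothelial markers it lay between 312 and 351 in all channels, and for the 4 epithelial markers between 251 and 335. Because background correction added an offset of 50, a probe near background still contributes to these sums and to those given below. Low sums are therefore largely this floor.

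A probe was called changed when its mean log2 ratio reached 1 in size (2-fold) and its sign agreed between the arrays or, for a genotype difference, between the dyes. To enter a density contrast a probe had to clear background at the low or the high density on each array of that genotype. To enter a genotype contrast it had to do so in each dye in the KO-labelled or the WT-labelled cells. Of the 12 probes, 8 entered every contrast and 4 entered none. With density, 7 of the 8 probes, from 4 genes, were called in WT-labelled cells, where 13.3% of all tested probes were called. In KO-labelled cells 3 of 8 were called, against 9.62% of all tested probes. The density effects of the genotypes differed by the same rule at 2 of 8 probes, against 8.0% of all. Between genotypes 2 of 8 probes were called at low density, against 13.9% of all, and 4 of 8 at high density, against 13.0% of all. Since the genes were chosen on these contrasts, nothing is read from these shares.

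**Figure D1:**
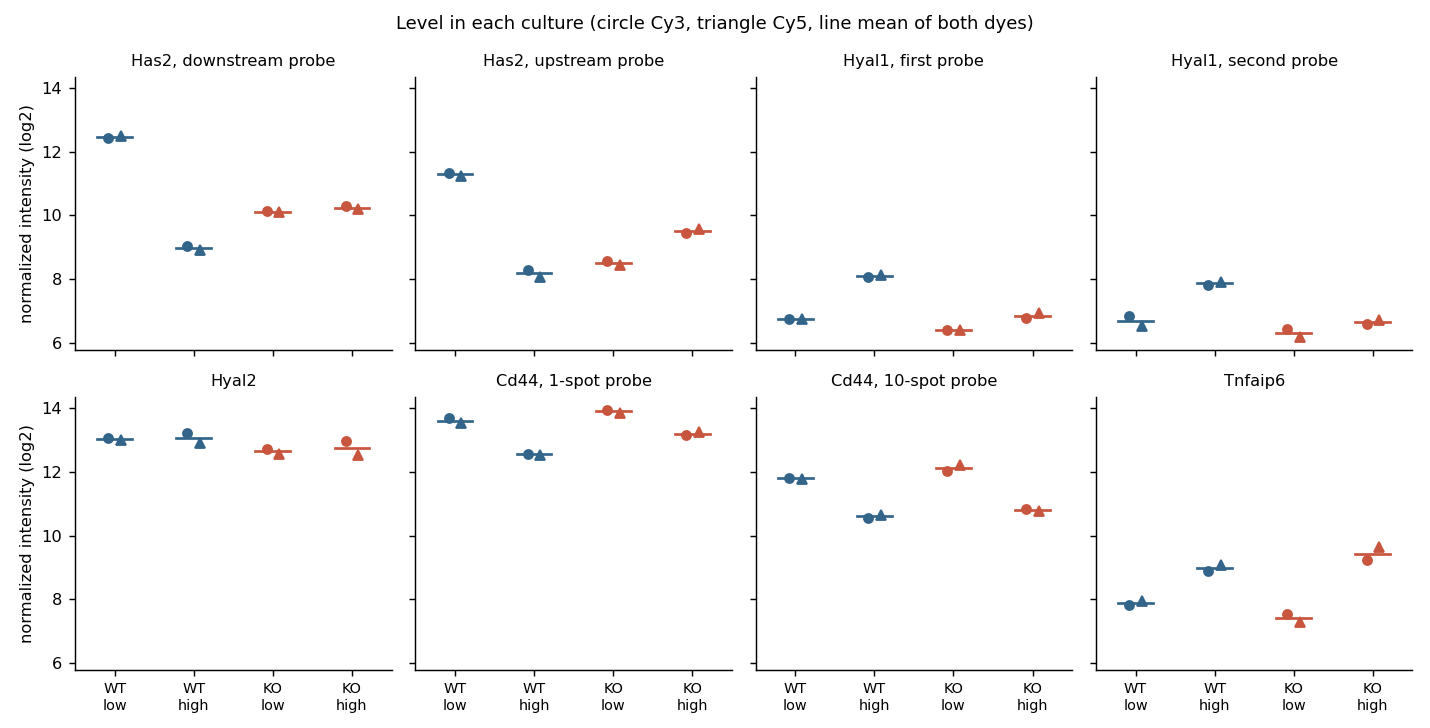
Normalized log2 intensity (vertical axis) of the 8 hyaluronan gene probes that entered the contrasts, in WT-labelled (blue) and KO-labelled (red) cells at low and high density; circles are Cy3, triangles Cy5 and lines the mean of both dyes, and levels may be compared within a panel only. Has2 was brightest in WT-labelled cells at low density (means 12.46 and 11.29 at its probes) and dimmest in the same cells at high density (8.99 and 8.18).

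Among the synthases only Has2 was measurable. The probes of Has1 (chr17:17548067-17548126 and chr17:17551927-17551986, minus strand, build mm8 as deposited) and Has3 (chr8:109771563-109771622, plus strand) were not well above background, with the exception of 1 Has1 probe in 1 of the WT low density channels. Together with the Cd44 probe farthest upstream they read 4.3 to 33.4 intensity units above local background, and no fold is given for them. A level below detection on these probes does not show that a transcript was absent.

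Has2 encodes a synthase that makes long hyaluronan chains. It has a downstream probe (chr15:56495884-56495943, minus strand), which the array annotation ties to the RefSeq mRNA, and an upstream probe 26.1 kb away (chr15:56522048-56522107, minus strand), tied to a separate cDNA record. Exon assignment was not made, because no annotation of this build was used here. At the downstream probe the normalized log2 intensity was 12.42 (Cy3) and 12.49 (Cy5) in WT-labelled cells at low density and 9.04 and 8.93 at high density. In KO-labelled cells it was 10.13 and 10.12 at low density and 10.28 and 10.19 at high density. The WT channels thus enclosed the KO channels, from above at low density and from below at high density, with no overlap between any of the 4 cultures.

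With density, Has2 in WT-labelled cells fell by 3.47 on the log2 scale at the downstream probe, which is 11.1-fold (-3.49 and -3.45 on the 2 arrays). The upstream probe fell by 3.11, or 8.62-fold (-3.26 and -2.95). Counted from the lowest value, these were places 9 and 22 of 22591 tested probes. In KO-labelled cells the same probes disagreed in size. The downstream probe gave 0.12 (0.07 and 0.17 on the arrays), below the 2-fold rule, and -0.10 when arrays were centred on their medians in place of loess. The upstream probe rose by 1.01 (2.02-fold, 1.01 and 1.02 on the arrays), just past the rule, and gave 0.90 with median centring, below it. The gap between probes was larger than the gap between arrays, and its cause was not tested.

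The density effect of Has2 was higher in KO-labelled than in WT-labelled cells by 3.59 at the downstream probe (3.56 and 3.62 in the 2 dye orientations) and by 4.12 at the upstream probe (4.27 and 3.97, and 4.72 as the mean on processed signals). Counted from the highest value, these were places 3 and 2 of 21546 tested probes. Seen between genotypes, Has2 was lower in KO-labelled cells at low density, with a log2 difference of -2.34 at the downstream probe (5.05-fold; -2.30 and -2.37 in Cy3 and Cy5). The upstream probe gave -2.78 (6.88-fold; -2.76 and -2.80). At high density the order turned. Has2 was then higher in KO-labelled cells, by 1.25 (2.38-fold; 1.24 and 1.26) at the downstream and 1.34 (2.53-fold; 1.17 and 1.51) at the upstream probe. In cell pools of this kind fewer cells of a type and less RNA per cell cannot be told apart.

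Markers of the mesothelial list moved with Has2 in part. The summed normalized intensity of its 4 genes was 3028 to 3135 in WT low density, 687 to 763 in WT high density, 523 to 627 in KO low density and 237 to 298 in KO high density channels. It was carried by Msln and Krt19, whose log2 density effects in WT-labelled cells were -2.40 and -2.17 and whose genotype differences at low density were -3.78 and -1.94. At high density their genotype differences were -2.28 and -1.95, where Has2 was higher in KO-labelled cells. In KO-labelled cells their density effects were -0.90 and -2.19, with 1 high density channel of each well above background. Upk3b and Upk1b, also on that list, were not well above background in any channel. Of the cartilage list, whose sum was 7683 to 8199, 6944 to 7132, 1651 to 2048 and 6107 to 8790 in the same order of cultures, Col2a1 gave -3.22 and Sox9 0.45 between genotypes at low density, and -0.48 and 1.47 with density in WT-labelled cells. The fibroblast list summed to 222302 to 259899, 358580 to 378536, 167700 to 230724 and 504527 to 662478, a sum over members that moved apart. Between genotypes at low density Pdgfra gave 4.46, Col3a1 0.84, Vim 0.49, Thy1 -0.11, Col1a1 -0.73 and Col1a2 -0.99. With density in WT-labelled cells Col3a1 gave 4.14, Pdgfra 3.05, Col1a2 0.56, Col1a1 0.50, Vim -0.51 and Thy1 -1.18. The part of these markers in the Has2 result was not tested.

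**Figure D2:**
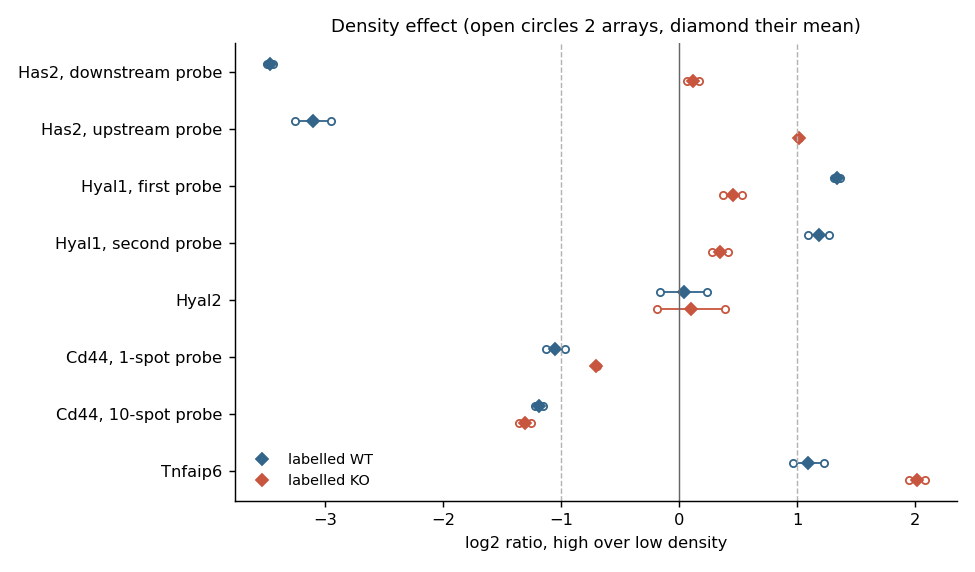
Log2 ratio of high over low density (horizontal axis) for the 8 probes in WT-labelled (blue) and KO-labelled (red) cells; open circles are the 2 arrays with exchanged dyes, diamonds their mean, dashed lines a 2-fold change. Has2 lies at -3.47 and -3.11 in WT-labelled cells and at 0.12 and 1.01 in KO-labelled cells (-0.10 for the first of these with median centring), while both Cd44 probes lie below 0 and Tnfaip6 and Hyal1 above 0 in both.

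By the rule fixed for likeness, the symbols closest to the downstream Has2 probe were sought among the 19501 probes that cleared background in each of the 8 channels, each centred on its own mean. The distance is Euclidean, in log2 units over the 8 channels. Among the nearest were Slc1a6, a glutamate transporter, at 1.14 and Pbk, a mitotic kinase, at 1.39. The upstream Has2 probe lay at 1.02 and the other members at 2.92 or more. With density, Slc1a6 fell by 3.67 in WT-labelled cells and gave -0.19 in KO-labelled cells. Pbk fell by 2.14 and gave 0.36.

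The hyaluronidases Hyal1 and Hyal2 are neighbours, with probes 6.88 kb apart. Hyal1 encodes an acid-active lysosomal enzyme and Hyal2 one that is anchored at the cell surface. The 250 bases upstream of their RefSeq starts (build GRCm38.p6, chr9:107576700-107576949 and chr9:107568913-107569162, plus strand for both) are shown because neighbouring genes responded differently. Capitals mark matches, on either strand, to GGGCGG (the SP1 box), GGAATG (the TEAD motif, read by the partners of YAP and TAZ) and TGANTCA (the AP-1 motif).
Hyal1: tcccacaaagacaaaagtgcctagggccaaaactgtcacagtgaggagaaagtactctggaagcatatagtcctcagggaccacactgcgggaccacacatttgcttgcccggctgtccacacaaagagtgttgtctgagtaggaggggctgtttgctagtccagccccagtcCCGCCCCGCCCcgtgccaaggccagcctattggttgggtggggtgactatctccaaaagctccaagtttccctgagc
Hyal2: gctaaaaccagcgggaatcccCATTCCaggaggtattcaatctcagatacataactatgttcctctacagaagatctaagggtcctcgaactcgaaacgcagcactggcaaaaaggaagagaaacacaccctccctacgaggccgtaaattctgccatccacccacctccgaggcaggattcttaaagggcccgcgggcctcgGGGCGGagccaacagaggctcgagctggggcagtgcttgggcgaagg
In the Hyal1 window 2 SP1 matches share 1 base, and no other motif matched. The Hyal2 window held 1 TEAD and 1 SP1 match. Of 32851 promoter windows of this length, 32.7% held an SP1, 12.6% a TEAD and 6.75% an AP-1 match. A match is a description of the letters only.

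Hyal1 rose with density in WT-labelled cells. Its first probe (chr9:107437653-107437712, plus strand) read 6.76 and 6.76 (Cy3 and Cy5, log2) at low and 8.07 and 8.13 at high density in WT-labelled cells. In KO-labelled cells it read 6.42 and 6.40 at low and 6.78 and 6.95 at high density. WT-labelled cells at high density stood above all other cultures, and KO-labelled cells at low density below them. The second probe (chr9:107437663-107437722) shares 50 bases with the first and is no separate measurement of the gene; 1 of its KO low density channels was not well above background.

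The rise of Hyal1 in WT-labelled cells was 1.34 (2.53-fold; 1.36 and 1.32 on the arrays) at the first probe and 1.18 (2.27-fold; 1.09 and 1.27) at the second. In KO-labelled cells the values were 0.45 (0.53 and 0.37) and 0.34 (0.27 and 0.41), below the rule. Their difference was -0.89 and -0.84, also below it. At high density Hyal1 was lower in KO-labelled cells, with log2 differences of -1.24 (2.36-fold; -1.30 and -1.17 in Cy3 and Cy5) and -1.22 (2.32-fold; -1.22 and -1.21). At low density the genotypes differed by -0.35 and -0.38. These ratios depend on how dim signals were treated. On the signals processed by the scanner software, which carry no offset, the WT rise was 2.32 and 2.24, the KO rise 1.18 and 1.27, past the rule, their difference -1.13, past it, and -0.97, and the log2 genotype difference -2.06 and -2.26 at high and -0.93 and -1.30 at low density.

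Hyal2 (chr9:107430719-107430778, plus strand) read 13.06 and 12.98 at low and 13.21 and 12.90 at high density in WT-labelled cells (Cy3 and Cy5, log2). The KO-labelled cells gave 12.70 and 12.57 at low and 12.96 and 12.52 at high density. The densities overlapped in both genotypes. Its density effects of 0.04 and 0.10 had opposite signs on the 2 arrays of each genotype, -0.16 and 0.24 in WT-labelled and -0.19 and 0.39 in KO-labelled cells. The lower value came in each case from the array with high density RNA in Cy5. Between genotypes Hyal2 gave -0.39 at low and -0.32 at high density, with the same sign in both dyes and below the 2-fold rule.

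**Figure D3:**
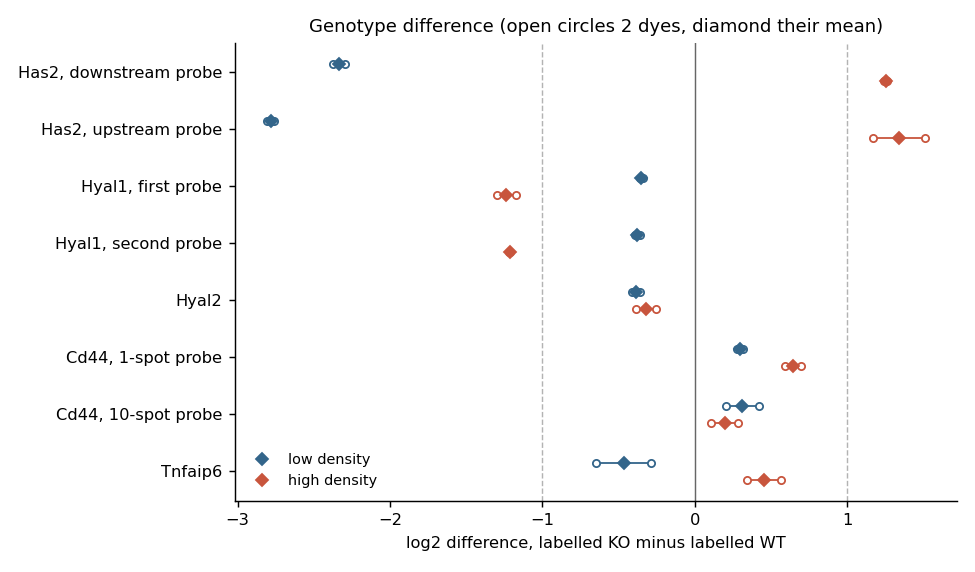
Log2 difference between KO-labelled and WT-labelled cells (horizontal axis) for the 8 probes at low (blue) and high (red) density; open circles are the 2 dyes, diamonds their mean, dashed lines a 2-fold difference. Has2 lies at -2.34 and -2.78 at low density and at 1.25 and 1.34 at high density, Hyal1 at -1.24 and -1.22 at high density, and Tnfaip6 changes sign from -0.47 to 0.45.

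Cd44, the hyaluronan receptor, has 3 probes on the minus strand of chromosome 2. The window upstream of its RefSeq start (chr2:102901666-102901915, minus strand) is shown for comparison with that of Tnfaip6 (chr2:52037863-52038112, plus strand), on the same chromosome, because these genes moved in opposite directions with density. Capitals mark the motifs named above.
Cd44: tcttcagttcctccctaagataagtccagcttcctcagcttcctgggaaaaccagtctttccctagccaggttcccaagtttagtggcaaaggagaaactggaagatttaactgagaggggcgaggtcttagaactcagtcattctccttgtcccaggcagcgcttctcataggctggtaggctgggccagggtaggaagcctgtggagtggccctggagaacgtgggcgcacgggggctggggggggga
Tnfaip6: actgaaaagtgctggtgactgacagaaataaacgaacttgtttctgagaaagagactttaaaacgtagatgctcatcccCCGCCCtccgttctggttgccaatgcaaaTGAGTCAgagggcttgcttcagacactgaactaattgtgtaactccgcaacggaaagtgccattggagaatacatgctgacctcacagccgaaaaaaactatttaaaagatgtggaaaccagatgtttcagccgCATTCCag
No motif searched matched in the Cd44 window. The Tnfaip6 window held 1 SP1 match, 1 AP-1 match 142 bases before the start, whose pattern is its own reverse complement, and 1 TEAD match 8 bases before the start. The RefSeq table used here had no promoter entry for Has2 and Has3.

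The Cd44 probe printed on 10 spots (chr2:102612349-102612408) gave a view of technical spread. In WT-labelled cells it read 11.81 and 11.78 at low and 10.56 and 10.66 at high density (Cy3 and Cy5, log2). The KO-labelled cells gave 12.02 and 12.20 at low and 10.84 and 10.76 at high density. Both low density cultures stood above both high density cultures. Cd44 fell by 1.19 in WT-labelled cells (2.28-fold; -1.16 and -1.22 on the arrays) and by 1.31 in KO-labelled cells (2.48-fold; -1.26 and -1.36). Over the spots of an array the SD was 0.0205 (9 unflagged spots) and 0.0239 on the WT arrays and 0.0454 and 0.0278 on the KO arrays. The genotypes' difference in density effect, -0.12, was of the order of the gap between arrays.

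A second Cd44 probe on 1 spot, 1.18 kb away (chr2:102613589-102613648), read 13.67 and 13.54 at low and 12.57 and 12.54 at high density in WT-labelled cells. Its KO values were 13.94 and 13.85 at low and 13.16 and 13.23 at high density. It fell by 1.05 in WT-labelled cells (-1.13 and -0.97) and gave -0.70 in KO-labelled cells (-0.71 and -0.70), so the probes differed on whether the KO value passed the 2-fold rule, except with median centring, where both passed (-1.21 at this probe and -1.63 at the 10-spot probe). Without WT replicate 1 its WT value was -0.97, below the rule. Between genotypes the probes gave 0.31 and 0.30 at low and 0.20 and 0.64 at high density, all below the rule. The farthest upstream Cd44 probe (chr2:102635102-102635161), 21.5 kb upstream of the second, was not well above background in any channel.

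Tnfaip6 (chr2:51878493-51878552, plus strand) rose with density in both genotypes. Its log2 intensity was 7.84 and 7.95 at low and 8.91 and 9.07 at high density in WT-labelled cells (Cy3 and Cy5). In KO-labelled cells it was 7.56 and 7.30 at low and 9.25 and 9.64 at high density. The KO channels enclosed the WT channels, from below at low density and from above at high density, with no overlap between cultures. The rise was 1.09 in WT-labelled cells (2.13-fold; 1.23 and 0.96 on the arrays) and 2.01 in KO-labelled cells (4.03-fold; 2.08 and 1.95). Without WT replicate 1 the WT value was 0.96, and with median centring 0.996, both just below the rule. The difference of the rises was 0.92 (0.85 and 0.99), and the genotypes differed by -0.47 (-0.29 and -0.65) at low and 0.45 (0.34 and 0.57) at high density, below the rule. The difference of the rises passed it on processed signals and on the series matrix ratios (1.16 each), with an offset of 10 (1.02) and without WT replicate 1 (1.05). The symbols nearest to Tnfaip6 in pattern were Prickle2, a planar polarity gene, at a distance of 0.314, AW822216 at 0.449 and Lrp4, a receptor of the lipoprotein receptor family, at 0.481. In KO-labelled cells Prickle2 rose with density by 1.77, AW822216 by 1.98 and Lrp4 by 2.01.

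Other genes of hyaluronan biology were followed as 46 genes in 4 roles, each by its brightest probe. Several of them, such as Cemip, Vcan, Ptx3 and Msn, have further probes, and agreement between probes was not examined. With density 6 of 32 tested genes rose and 3 fell in WT-labelled cells, and 1 of 30 rose and 2 fell in KO-labelled cells. Their median density effects were -0.02 and -0.17, against 0.01 and 0.01 over all tested probes. Over all probes 13.3% and 9.62% were called. The difference of density effects was called for 6 of 29 genes, against 8.0% of all tested probes. All 6 were lower in KO-labelled cells, as were 909 of the 1724 probes called overall. Between genotypes 5 of 29 were higher and 2 lower in KO-labelled cells at low density, and 5 of 30 were lower and 0 higher at high density, where 13.9% and 13.0% of all probes were called.

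Of the 8 genes that supply the sugar nucleotides, 0 were called with density in either genotype. Nagk, the kinase that salvages N-acetylglucosamine, had a density effect of 0.92 in WT-labelled and -0.20 in KO-labelled cells, a difference of -1.12. Without KO replicate 1 the KO value was 0.13 and the difference -0.79, and without WT replicate 2 the difference was -0.97, both below the rule. Gfpt1, the entry enzyme of the hexosamine pathway, was lower in KO-labelled cells at high density (log2 difference -1.002), just past the rule. It was below the rule with median centring (-0.96), quantile normalization (-0.99) and no scaling between arrays (-0.76), and in Cy3 or Cy5 alone it was -0.92 or -1.09. Ugdh, which makes the UDP-glucuronic acid used by the synthases, gave -0.44 and -0.17 with density.

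The breakdown list held 10 genes. With density 3 of 5 tested genes rose in WT-labelled cells, and 1 of 6 fell in KO-labelled cells. Cemip, a hyaluronan-binding protein needed for hyaluronan degradation by fibroblasts, read 10.94 and 10.89 at low and 12.11 and 12.16 at high density in WT-labelled cells (Cy3 and Cy5, log2). Its KO values were 12.15 and 11.95 at low and 10.01 and 10.36 at high density. It rose by 1.22 in WT-labelled cells (0.99, below the rule, with median centring) and fell by 1.87 in KO-labelled cells, a difference of -3.09. Its order between genotypes thus turned the opposite way to that of Has2, with log2 differences of 1.13 at low and -1.96 at high density. Hexa, whose product takes part in trimming hyaluronan fragments in lysosomes, rose by 1.13 in WT-labelled cells (0.87, below the rule, with median centring) and gave -0.30 in KO-labelled cells, a difference of -1.43. It was higher in KO-labelled cells at low density by 1.32. Gusb, the lysosomal beta-glucuronidase, was lower in KO-labelled cells at both densities (log2 differences -1.42 at low and -2.30 at high). Hyal4, Hyal5, Hyal6 and Spam1 were not well above background in any channel.

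**Figure D4:**
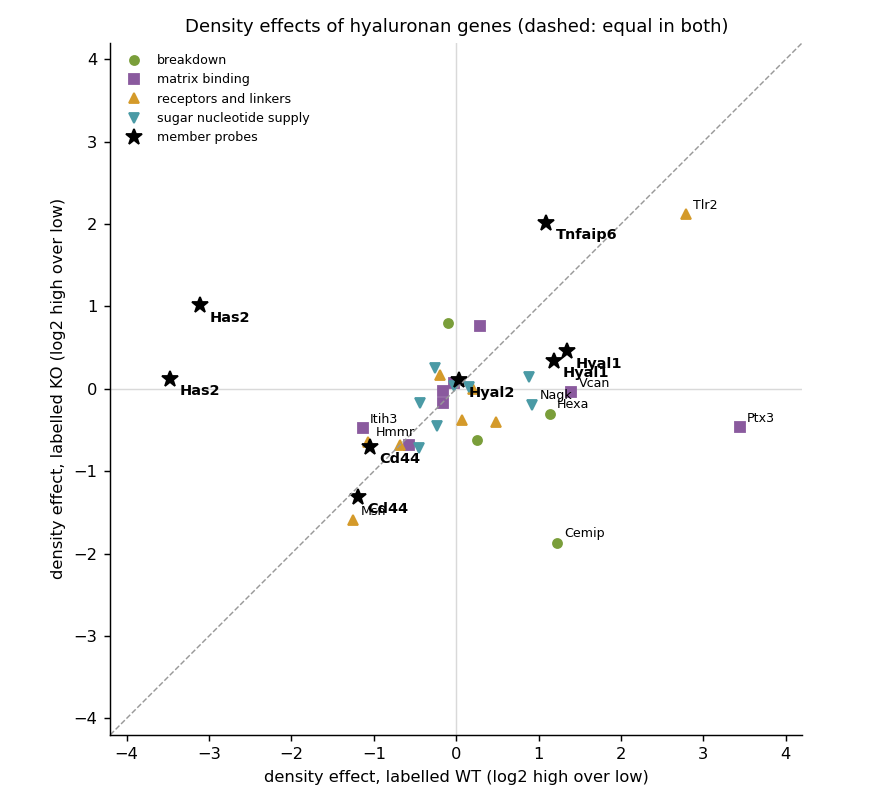
Density effect (log2 high over low density) in WT-labelled cells (horizontal axis) against KO-labelled cells (vertical axis) for the 8 member probes (stars) and 28 of the 29 genes of the 4 roles tested in both genotypes (the other is not drawn); the dashed line marks equal effects. Has2 lies left of the vertical axis at -3.47 and -3.11, and Ptx3 at 3.44 and Cemip at 1.22 lie to its right and below 0 in KO-labelled cells.

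Of the 18 matrix binding genes, 2 of 11 tested rose and 1 fell with density in WT-labelled cells, and 0 of 8 were called in KO-labelled cells. Ptx3 encodes a pentraxin that joins TSG-6 and the heavy chains in hyaluronan-rich matrix. It read 7.59 and 7.38 at low and 10.84 and 11.02 at high density in WT-labelled cells. Its KO values were 12.17 and 12.09 at low and 11.53 and 11.80 at high density. It rose by 3.44 in WT-labelled cells and gave -0.47 in KO-labelled cells, a difference of -3.91, and was higher in KO-labelled cells at low density by 4.65. On processed signals these values were 4.07, -0.53, -4.60 and 5.35. Vcan, the large proteoglycan versican that binds hyaluronan through its head, rose by 1.397 in WT-labelled cells and gave -0.04 in KO-labelled cells, a difference of -1.44. Itih3, a heavy chain gene, fell by 1.14 in WT-labelled cells, where 1 of the high density channels was not well above background. The ratio was -1.86 with an offset of 10 and -2.77 on processed signals. Itih2, another heavy chain gene, was at least 16.9-fold lower in KO-labelled cells at low density, where it was not well above background (measured means 10.20 in WT-labelled and 6.12 in KO-labelled cells). At high density it was also called lower, with 1 of the KO channels well above background, and no size is given.

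Of the 10 receptors and linkers, 1 of 8 tested rose and 2 fell in WT-labelled cells, and 1 rose and 1 fell in KO-labelled cells. Tlr2, a pattern receptor that hyaluronan fragments can engage, rose by 2.79 (3.46 on processed signals) and 2.12 and was higher in KO-labelled cells at low density by 1.31. Msn, which links Cd44 to the actin cortex, fell by 1.25 and 1.59. Hmmr, an intracellular and surface hyaluronan-binding protein of dividing cells, fell by 1.07 in WT-labelled cells (-1.71 on processed signals) and gave -0.64 in KO-labelled cells. Tlr4 was lower in KO-labelled cells at high density (log2 difference -1.397, and -2.42 on processed signals). Lyve1 and Stab1, receptors of lymphatic and sinusoidal endothelium, were not well above background in any channel.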

How the data were processed

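MEF RNA was hybridised on 4 dual-colour Agilent arrays. Per the file headers, the authors extracted the scans with Agilent Feature Extraction 10.5.1.1 (submitters' processing notes) and deposited, for each dye, mean spot intensity, local background intensity, quality flags of 0 or 1 (a score) and processed signal intensity. The deposited log10 ratio of Cy5 to Cy3 came from the software, and the deposited series matrix held the same log10 ratio, turned to high over low density. Symbols and positions are those of the array annotation (mm8).

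From raw intensity, background was corrected with limma 3.58.1 (R 4.3.3; normexp, offset 50) and arrays were normalized by loess, with control and outlier-flagged spots (107 to 224 per array) at weight 0. Spots of a probe were averaged, and single channels were scaled by Aquantile for genotype contrasts. The offset shrinks ratios of dim probes. Arrays limit precision by their number, since 1 dye swap per genotype allows no test; the SD of an array's density effect around the pair's mean was 0.0987 (WT) and 0.143 (KO) over all tested probes. Calls were also run on simulated data. The simulated noise was independent between spots, with no slide, scan or culture differences. That run therefore cannot show how the calls fare under such differences. Members and gene lists were chosen with earlier results of these data known. All member probes are named. Pathway genes (sugar nucleotide supply, breakdown, matrix binding, receptors and linkers) are named when called, at most 4 per role and contrast, or as examples chosen after their values were seen (Ugdh, Hyal4, Hyal5, Hyal6, Spam1, Lyve1, Stab1, Cemip2, Gnpnat1, Rdx). Some genes that these rules would name are not reported here. Cell type markers were listed for fibroblasts, leukocytes, endothelium, epithelium, mesothelium and cartilage. Alternatives were other background, scaling and filter settings and leaving out each array.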

Additional observations from a re-analysis of the deposited data

Results flagged for a closer look

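Member probes, and pathway genes called in at least 1 contrast, were searched for opposite signs. Density effects of opposite sign in the genotypes, on both arrays of each, were found at both Has2 probes, where the effect in KO-labelled minus that in WT-labelled cells was 3.59 and 4.12; with median centring the downstream probe was below 0 in both genotypes (-3.67 and -0.10). Among pathway genes called in no contrast, Cemip2 (0.90), Gnpnat1 (0.51) and Rdx (0.36) had the same order of signs. The opposite order was found for Cemip (-3.09), Ptx3 (-3.91), Hexa (-1.43), Tlr4 (-0.89) and Gusb (-0.88). Genotype differences of opposite sign at low and high density, in both dyes, were found for Has2, Cemip and Hexa, whose values are given above (Hexa 1.32 at low and -0.11 at high density, the latter 0.19 without scaling between arrays). They were also found for Tnfaip6, where the value at high minus that at low density was 0.92, and for Vcan (-1.44), Nagk (-1.12) and Msn (-0.34). None of these differences was tested, since each genotype has 1 dye swap. At Tnfaip6, Vcan, Nagk and Msn the genotype difference was below the 2-fold rule at both densities. Nagk at low density was 0.993, and 1.04 with median centring, 1.03 with an offset of 10, 1.06 on processed signals and 1.29 without scaling between arrays, where its high density value turned to 0.17. Vcan at low density was 1.08 without that scaling. Msn gave 0.054 at low density (0.073 and 0.035 in Cy3 and Cy5) and -0.29 at high density. Its difference between densities was -0.59 without KO replicate 1 and -0.10 without KO replicate 2.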

How the results depend on the processing

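Across 304 recomputed values of the 8 member probes, 10 had another sign than reported, and none of these was of a called value; 9 were values of Hyal2 and 1 was the Has2 downstream value in KO-labelled cells, -0.10 with median centring. In WT-labelled cells that probe gave -3.67 with median centring, -3.74 on the software's processed signals and -3.72 in the series matrix. Its difference of density effects was 3.83 and 3.82 on the latter, and without scaling between arrays, which moved the median of all probes by 0.23, its genotype differences were -2.04 and 1.54. Leaving out each array gave -3.49 to -3.45, 0.07 to 0.17, 3.54 to 3.64, -2.37 to -2.30 and 1.24 to 1.26 for its 5 contrasts. Counts of called probes moved from 3 to 5 in KO-labelled cells on processed signals and on the series matrix, with Hyal1 added. For the difference they moved from 2 to 5 with an offset of 10 or a 1.4-fold threshold (Hyal1 and Tnfaip6 added) and to 4 on processed signals and the series matrix. Leaving out each array gave 5 to 7 probes in WT-labelled cells, with the 1-spot Cd44 probe and Tnfaip6 lost without WT replicate 1, and 2 to 3 for the difference. With probes of a gene averaged first the counts were 4 genes in WT-labelled cells, 2 in KO-labelled cells (3 with probes apart, Has2 being lost, whose probes gave 0.12 and 1.01), 1 for the difference, and 1 and 2 for the genotype differences at low and high density. Density effects were taken within arrays, on which both densities were hybridised together. Between genotypes no paired analysis was possible, because replicate numbers mark dye orientation within a genotype. No result comes from a test. The methods' t-test and a slide or scan block were not run, since a single dye swap per genotype leaves no degrees of freedom. Signal over background limits the size of the Hyal1 ratios, and Has1, Has3 and the farthest upstream Cd44 probe could not be measured.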
